A study of Mus musculus with 6 samples.

Results

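The genes described here are 9 cell surface receptors and ligands that give T cells costimulatory signals: Icos, Cd28, Tnfrsf4, Tnfrsf9, Tnfrsf18, Tnfrsf1b, Tnfrsf25, Cd27 and Cd40lg. They were found by their symbols in the deposited gene lists, where each symbol names 1 row, so that 9 of the 27998 genes listed are described. The cells were mouse invariant natural killer T (iNKT) cells, sorted from liver, spleen or lymph node and profiled by 10x Genomics 3′ single-cell RNA-seq with 2 libraries per organ. All 6 libraries came from wild-type (WT) C57BL/6 mice aged 5 weeks with no treatment given in the labels, and in all of them CD8 and B220 positive cells had been removed before TCR-β positive cells that bound a CD1d tetramer were sorted. The labels give neither sex nor the number of mice behind a library, and they name the molecule as nuclear RNA. The 2 libraries of an organ are the replicates. Each p-value sets a difference against the spread between replicates, which the main fits estimate from all 6 libraries together.

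T cells need a signal through the antigen receptor and a further signal from costimulatory receptors. CD28 and ICOS belong to the immunoglobulin superfamily, bind ligands of the B7 family and act through phosphoinositide 3-kinase. The TNF receptors OX40 (Tnfrsf4), CD137 (Tnfrsf9), GITR (Tnfrsf18), TNFR2 (Tnfrsf1b), DR3 (Tnfrsf25) and CD27 bind trimeric ligands of the TNF family, and most of them recruit TRAF adaptors and activate NF-kB. CD40 ligand (Cd40lg) is itself a ligand of that family, through which T cells signal to B cells and dendritic cells. ICOS and CD28 are known to take part in the survival and cytokine production of iNKT cells.

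The genes sit in few places of the genome (GRCm38, gene bodies by Ensembl identifier). Cd28 (ENSMUSG00000026012, chr1:60716800-60773359, plus strand) and Icos (ENSMUSG00000026009, chr1:60977927-61000320, plus strand) are 204567 bases apart with Ctla4 between them. Tnfrsf4 (ENSMUSG00000029075, chr4:156013843-156016612, plus strand) and Tnfrsf18 (ENSMUSG00000041954, chr4:156026164-156028895, plus strand) are 9551 bases apart with no coding gene between them. Tnfrsf1b (ENSMUSG00000028599, chr4:145213463-145246870, minus strand), Tnfrsf9 (ENSMUSG00000028965, chr4:150914562-150946102, plus strand) and Tnfrsf25 (ENSMUSG00000024793, chr4:152115934-152120119, plus strand) are on the same chromosome. Cd27 (ENSMUSG00000030336, chr6:125232622-125237010, minus strand) and Cd40lg (ENSMUSG00000031132, chrX:57212143-57224042, plus strand) are alone. Tnfrsf9, Tnfrsf18 and Cd27 overlap genes of the opposite strand in the annotation (Camta1, Gm16008 and Vamp1), and the strand setting of the counting is not given in the sources used here.

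The NF-kB, AP-1 and interferon response motifs were searched on both strands in the 250 bases before each RefSeq start (GRCm38.p6), for which 6 of the 9 genes had 8 entries. The NF-kB consensus, searched because Tnfrsf9 was highest in NF-kB-like cells below, was present before 2 of these 8 starts and before 7.25% of all 32851 starts. Its matches lay before the second listed starts of Tnfrsf9 and of Tnfrsf25. The AP-1 site (TGACTCA or TGAGTCA) was present before 1 of the 8 starts, also the second one of Tnfrsf9, and before 4.46% of all. An interferon response element (TTTCNNTTTC) was present before 1 of the 8 starts, that of Tnfrsf1b, and before 2.98% of all. The matching stretches are shown with the NF-kB match in capitals, for Tnfrsf9 at chr4:150927946-150927975 (plus strand, 3 matches that overlap, 43 to 33 bases before the start, in an annotated UTR of another transcript) and for Tnfrsf25 at chr4:152116305-152116334 (plus strand, 28 to 19 bases before the start). The window of the first listed Tnfrsf9 start, chr4:150919905-150920154 (plus strand), held no match of the 3 motifs and is shown for comparison.
Tnfrsf9, second start: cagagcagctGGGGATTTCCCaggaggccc
Tnfrsf25, second start: aaaggggtctGGGGGCCTCCacttctcaga
Tnfrsf9, first start: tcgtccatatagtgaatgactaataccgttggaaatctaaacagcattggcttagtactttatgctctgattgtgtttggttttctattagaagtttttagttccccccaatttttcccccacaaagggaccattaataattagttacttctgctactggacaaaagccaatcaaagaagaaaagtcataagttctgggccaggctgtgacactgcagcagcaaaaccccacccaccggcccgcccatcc
The data count transcripts at their 3′ end and so do not tell the starts of a gene apart.

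Of 16587 barcodes, 16532 cells were kept (5662 from liver, 5384 from spleen and 5486 from lymph node), with 4758138 to 10870838 unique molecular identifiers (UMIs) per library. Levels are given as CPM, the UMIs of a gene per 1000000 UMIs. Liver cells held the most UMIs, with a median of 3592 and 2880 against 1470 to 1730.5 UMIs in the other libraries. The mitochondrial share of UMIs was 2.79% and 2.85% in liver against 4.27% to 5.26% in the others. Ribosomal and haemoglobin genes, which were left out, held 33.9% and 31.5% of UMIs in liver against 22.6% to 27.8%. T cell genes were present in every library (Cd3e at 619 to 1146 CPM and the iNKT transcription factor Zbtb16 at 70.6 to 99.4 CPM). Lists of markers of other cells summed to 20.0 to 97.0 CPM (6 B cell markers found), 228 to 363 CPM (8 myeloid), 200.1 to 328 CPM (6 regulatory T), 2.43 to 6.96 CPM (2 of conventional CD8 T cells) and 1.63 to 3.98 CPM (5 hepatocyte) per library. Within them some genes were at or near 0, with 0 to 2 UMIs of Foxp3, 0 to 5 of Adgre1, 0 to 2 of Alb and 0 of Ttr per library. Others were not, with 834 to 1115 UMIs of Ikzf2, 62 to 407 of Il2ra, 779 to 1357 of Cst3, 22 to 283 of Tyrobp, 64 to 495 of Cd74 and 3 to 392 of Lyz2, the last highest in lymph node replicate 2. One of the alternatives named below left out 2 of the cell classes and kept 2562 to 2772 cells per library. Most of the cells left out were cycling cells (203, 147 and 132 from liver, spleen and lymph node). The others were B cell-like (17, 3 and 5), and no cluster was named myeloid-like. The part of other cells in the results was not tested. The lymph node libraries stand apart from the others in several measures beside their cell classes, which are given below. Xist had 0 UMIs in lymph node and 5401 to 10404 in the other libraries, whereas Y-chromosome genes had 1365 and 1582 UMIs in lymph node and 0 elsewhere. Immediate early genes (Fos, Jun, Egr1, Nr4a1, Dusp1, Atf3 and Ier2, which T cells raise within minutes of stimulation or handling) summed to 2605 and 2823 CPM in lymph node against 378 to 606 CPM in liver and spleen. The 10 genes of the NF-kB list summed to 2510 and 2357 CPM in lymph node against 1399 to 1598 CPM in the other libraries. Organ, sex-chromosome RNA, immediate early RNA and the level of the NF-kB list therefore cannot be told apart in any comparison with lymph node. Pairs of libraries shared 6 to 20 cell barcodes.

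The first question was whether the level of these genes over all cells differed between the organs. Icos and Cd28 were highest in lymph node, Cd40lg and Cd27 were lowest in liver, Tnfrsf18 was lowest in lymph node, Tnfrsf9 was higher in spleen than in lymph node, and Tnfrsf4 was lowest in spleen. Tnfrsf1b and Tnfrsf25 passed no test. UMIs of all cells were summed per library and tested across all genes with edgeR, where a gene was called at an adjusted p below 0.05. Of the 9 genes, 5 were called between liver and spleen, where 25.7% of all 10266 genes tested were called. Between liver and lymph node 5 were called, against 37.5% of all genes, and between spleen and lymph node 5 were called, against 18.1% of all genes. The median log2 fold of the 9 genes was -0.22, -0.29 and -0.09 in the 3 comparisons, and that of all genes was 0.02, 0.01 and 0.00. The 3 comparisons share libraries, and a negative fold means a lower level in the first organ of a pair.

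Icos, the inducible costimulator, had a normalised level of 300.7 and 303.4 CPM in liver, 378.5 and 415.5 CPM in spleen, and 856.8 and 947.7 CPM in lymph node. Every lymph node library was above every spleen library, and every spleen library above every liver library. On the log2 scale liver over lymph node was -1.58 ± 0.12 (SE; edgeR adjusted p = 1.45e-12, n = 2 libraries per organ) and spleen over lymph node -1.18 ± 0.12 (edgeR adjusted p = 2.09e-09). These are 2.99-fold and 2.27-fold higher levels in lymph node. Liver was lower than spleen by a log2 fold of -0.39 ± 0.12 (edgeR adjusted p = 0.0134), a call that was lost without liver replicate 1 or without spleen replicate 2 (adjusted p up to 0.168).

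Cd28, the receptor of CD80 and CD86, was at 363.5 and 376.4 CPM in liver, 436.7 and 424.6 CPM in spleen, and 731.6 and 775.8 CPM in lymph node. The lymph node libraries again lay above all others. The folds were -1.03 ± 0.12 (log2, SE) for liver over lymph node (edgeR adjusted p = 1.17e-08) and, for spleen, -0.81 ± 0.12 (edgeR adjusted p = 2.58e-06). Liver and spleen did not overlap but the log2 fold of -0.22 ± 0.12 did not pass the test (edgeR adjusted p = 0.161). The calls of Icos and Cd28 against lymph node were kept in all 17 alternatives. They were kept without iNKT17-like cells, where the liver over lymph node log2 folds were -1.44 for Icos and -1.35 for Cd28.

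**Figure D1:**
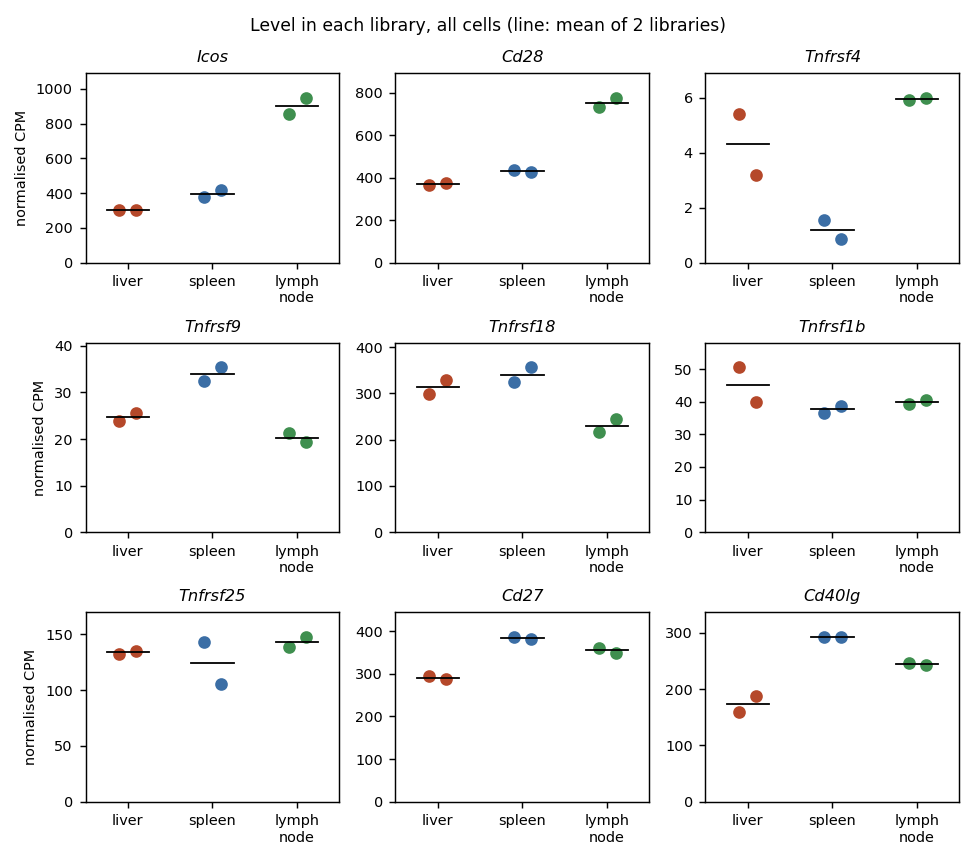
Normalised level (CPM, linear axis from 0) of each of the 9 genes over all cells, 1 point per library and a line at the mean of the 2 libraries of an organ. Icos and Cd28 stand highest in lymph node, Cd40lg and Cd27 lowest in liver, Tnfrsf18 lowest in lymph node and Tnfrsf4 lowest in spleen.

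Among the TNF receptors, Tnfrsf18 (GITR, which binds GITR ligand) was at 297.9 and 328.3 CPM in liver, 324.3 and 356.2 CPM in spleen, and 216.7 and 243.9 CPM in lymph node. Both lymph node libraries lay below the rest, while liver and spleen overlapped. Liver over lymph node gave a log2 fold of 0.44 ± 0.12 (SE; edgeR adjusted p = 0.00302) and spleen over lymph node gave 0.56 ± 0.12 (edgeR adjusted p = 0.000636). The liver over lymph node call was lost without lymph node replicate 1. Without iNKT17-like cells the 2 folds were 0.14 (edgeR adjusted p = 0.406) and 0.25 (edgeR adjusted p = 0.198), and neither passed the test. Such cells made up 33.1% and 36.1% of the lymph node libraries and 1.00% to 2.02% of the others.

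Tnfrsf9 (CD137, a receptor that T cells raise after activation) was at 23.9 and 25.7 CPM in liver, 32.5 and 35.4 CPM in spleen, and 21.3 and 19.4 CPM in lymph node. Spleen was highest in both of its libraries, and the 3 organs did not overlap. The log2 fold of spleen over lymph node was 0.74 ± 0.19 (SE; edgeR adjusted p = 0.00416). It fell to 0.26 (adjusted p = 0.443) without iNKT17-like cells, and the call was also lost with DESeq2 and without lymph node replicate 2. Liver was lower than spleen by a log2 fold of -0.45 ± 0.17 (edgeR adjusted p = 0.0452), close to the threshold and lost on leaving out any single library. Without NF-kB-like cells, the same fold was -1.01 (edgeR adjusted p = 0.000178). For liver over lymph node the fold of 0.28 ± 0.18 did not pass (edgeR adjusted p = 0.223), and it was -0.35 without NF-kB-like cells.

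Tnfrsf4 (OX40) was rare. The liver libraries held 41 and 20 UMIs of it (5.43 and 3.21 CPM), the spleen libraries 6 and 3 (1.55 and 0.855 CPM), and those of lymph node 22 and 22 (5.92 and 6.00 CPM). Both spleen libraries lay below all others. Spleen over lymph node gave a log2 fold of -2.27 ± 0.52 (SE; edgeR adjusted p = 0.00160), called in all 17 alternatives, and liver over spleen gave 1.83 ± 0.51 (edgeR adjusted p = 0.00786). The liver over spleen call was lost with DESeq2, without liver replicate 1, without spleen replicate 2 and without NF-kB-like cells, and its fold there was as low as 1.32. Liver and lymph node did not pass the test (log2 fold -0.44 ± 0.36, edgeR adjusted p = 0.352).

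Cd27, the receptor of CD70 that marks less differentiated T cells, was at 294.6 and 286.8 CPM in liver, 386.5 and 382.7 CPM in spleen, and 361.5 and 348.4 CPM in lymph node. Liver was lowest in both libraries and the organs did not overlap. The log2 fold was -0.40 ± 0.11 (SE) for liver over spleen (edgeR adjusted p = 0.00800, lost without spleen replicate 2 at adjusted p = 0.0557). It was -0.29 ± 0.11 for liver over lymph node (edgeR adjusted p = 0.0420), which was lost on leaving out any single library and in 10 of 17 alternatives in all. Spleen and lymph node did not pass the test (log2 fold 0.12 ± 0.11, edgeR adjusted p = 0.536).

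Tnfrsf1b (TNFR2, a receptor of TNF with no death domain) and Tnfrsf25 (DR3, which binds TL1A and carries a death domain) showed no organ difference that passed the test. Tnfrsf1b was at 50.5 and 39.8 CPM in liver, 36.6 and 38.8 CPM in spleen, and 39.3 and 40.6 CPM in lymph node. Its log2 folds were between -0.09 and 0.27, with standard errors of 0.15 to 0.16 and edgeR adjusted p between 0.202 and 0.781. Tnfrsf25 was at 132.5 and 135.0 CPM in liver, 143.3 and 105.5 CPM in spleen, and 138.4 and 147.6 CPM in lymph node. The spleen libraries spanned the liver values, and the edgeR adjusted p was between 0.327 and 0.590. The direction of some of these folds turned in alternatives, as listed with the processing.

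Cd40lg, the ligand of CD40, was at 159.6 and 188.0 CPM in liver, 292.9 and 292.0 CPM in spleen, and 247.1 and 243.1 CPM in lymph node. Liver lay below both other organs in each library. Liver over spleen gave a log2 fold of -0.75 ± 0.12 (SE; edgeR adjusted p = 1.39e-05), a 1.68-fold higher level in spleen, and liver over lymph node gave -0.50 ± 0.12 (edgeR adjusted p = 0.000911). Both calls were kept in all 17 alternatives. Spleen and lymph node did not pass the test (log2 fold 0.25 ± 0.12, edgeR adjusted p = 0.132). Cd40lg lies on the X chromosome, and whether the difference in sex-chromosome RNA bears on its lymph node value was not tested.

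**Figure D2:**
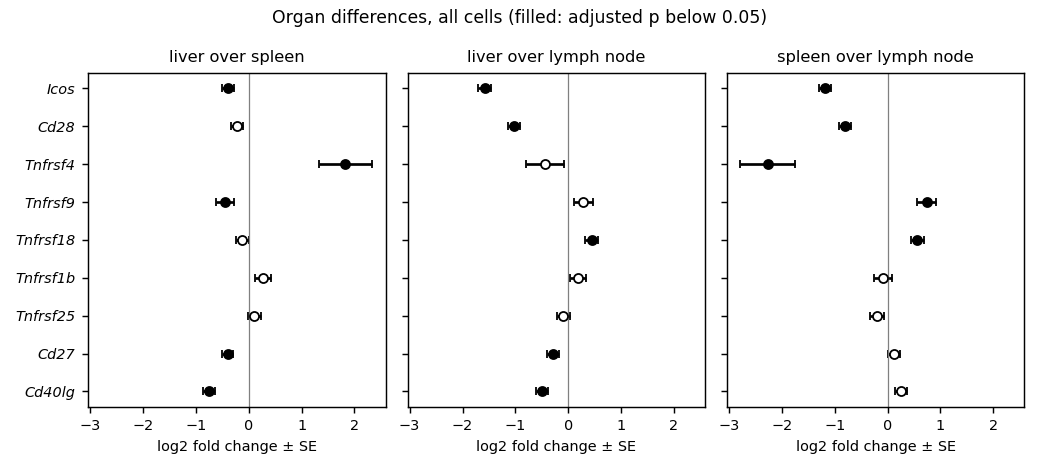
Log2 fold change (x axis, bars are ± 1 standard error from the edgeR fit) of each gene in the 3 organ comparisons over all cells, with filled points for an adjusted p below 0.05. The largest folds against lymph node are those of Tnfrsf4 from spleen and of Icos from liver, and 5 points are filled in each panel.

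The sums over all cells mix cell classes, and in them a change in the share of a class and a change in RNA per cell cannot be told apart. Cells were therefore clustered without the 9 genes and named from marker lists. iNKT1-like cells were 72.2%, 68.9% and 5.25% of liver, spleen and lymph node cells (mean of 2 libraries), and iNKT17-like cells were 1.25%, 1.63% and 34.6%. A cluster of 2818 cells, called cluster 2, had no marker list at the threshold, was led by Ccl1, Gm17056, Nrgn, Dusp1 and Pdcd1, and held 47.7% of lymph node cells but under 2% of liver and spleen cells. NF-kB-like cells were 9.36%, 1.28% and 0.69%, and recent thymic emigrant-like (RTE-like) cells were 3.30%, 13.7% and 4.55%. Gzma-like, Ifit-like and cycling cells made up the remainder together with clusters of 40 and 25 cells. These names come from a clustering made for the present work and may differ from the study's own. Levels by class are a description, for which no test was run, and the libraries of different classes are the same 6.

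iNKT17-like cells, which carry the RORγt programme, held more Icos and Tnfrsf25 than the other cells. Their Icos level was 670.5 and 640.9 CPM in liver, 788.7 and 1014.7 CPM in spleen, and 1007.1 and 1140.1 CPM in lymph node. In each library this was above the other cells, by a ratio of 1.33 to 2.61 with a median of 2.14. The lowest ratios were in lymph node. There these cells were 33.1% and 36.1% of the cells and gave 41.9% and 46.3% of the Icos UMIs, whereas they gave 2.60% to 5.04% in the libraries of liver and spleen. Tnfrsf25 was at 261.4 and 279.1 CPM, 351.7 and 213.6 CPM, and 198.6 and 202.8 CPM in these cells, in the same order of organs. Its ratio to the other cells was 1.81 to 2.57 with a median of 2.01, above 1 in 6 of 6 libraries. The remaining receptors were lower there. The median ratio was 0.51 for Tnfrsf18, 0.68 for Cd27, 0.77 for Tnfrsf1b and 0.08 for Tnfrsf9, each below 1 in 6 of 6 libraries. For Tnfrsf1b it was below 1 in 5 of 6 libraries when cells were clustered without regressing out UMI count and mitochondrial share. The same held with 10 principal components. Tnfrsf9 had 0, 0, 0, 1, 6 and 12 UMIs in the iNKT17-like cells of the 6 libraries, and Tnfrsf4 had 5 UMIs in all, each of them in lymph node. Cd28 was below the other cells in 5 of 6 libraries (median ratio 0.75), and Cd40lg was near them (median ratio 1.01).

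NF-kB-like cells, named from Nfkbia, Relb, Icam1, Gadd45b, Irf8 and related genes, had the highest Tnfrsf9. The level was 114.1 and 77.9 CPM in liver, 196.5 and 170.2 CPM in spleen, and 117.7 and 90.1 CPM in lymph node, from 85, 69, 14, 9, 3 and 2 UMIs. It was above the other cells of the same library in 6 of 6 libraries by a ratio of 4.53 to 7.74 with a median of 5.57, and the median was 6.16 over 6 libraries, 7.34 over 4 and 7.46 over 5 in 3 other clusterings, where the missing libraries had fewer than 10 such cells. In liver these cells were 7.53% and 11.2% of the cells and gave 47.2% and 43.1% of the Tnfrsf9 UMIs. The other genes pointed both ways there. Tnfrsf18 was above the other cells in 5 of 6 libraries (median ratio 1.39), Tnfrsf1b in 5 (1.31) and Tnfrsf25 in 4 (1.19), whereas Cd28 was below them in 5 of 6 libraries (0.70) and Cd27 in 4 (0.68). For Tnfrsf1b the median ratio was 1.08, 0.94 and 0.90 in the 3 other clusterings.

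RTE-like cells, which carry Ccr7 and Klf2, were above the other cells of their library in Cd28 (median ratio 1.30) and Cd27 (median ratio 1.32) in 6 of 6 libraries. In the same cells Tnfrsf9 (median ratio 0.52) and Cd40lg (median ratio 0.85) were below in 6 of 6 libraries. Gzma-like cells, which carry NK cell receptors, had less Icos (median ratio 0.56), Tnfrsf25 (0.66) and Cd40lg (0.71) in 6 of 6 libraries. Cycling cells had less Cd27 (median ratio 0.43), Tnfrsf25 (0.53), Tnfrsf18 (0.61), Tnfrsf1b (0.75), Cd40lg (0.75) and Cd28 (0.85) in 6 of 6 libraries. In these cells Tnfrsf1b was below in 4 of 6 libraries with 10 principal components, and Cd40lg in 5 of 6 without regression. iNKT1-like cells had more Tnfrsf18 than the other cells in 6 of 6 libraries (median ratio 1.26). Of the 63 combinations of gene and named class, 23 pointed the same way in all 6 libraries, and of the 71862 combinations over all 10266 genes tested 16.4% did. The clustering used 3000 variable genes, from which the 9 were kept out, so that only a part of the other genes took part in it.

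**Figure D3:**
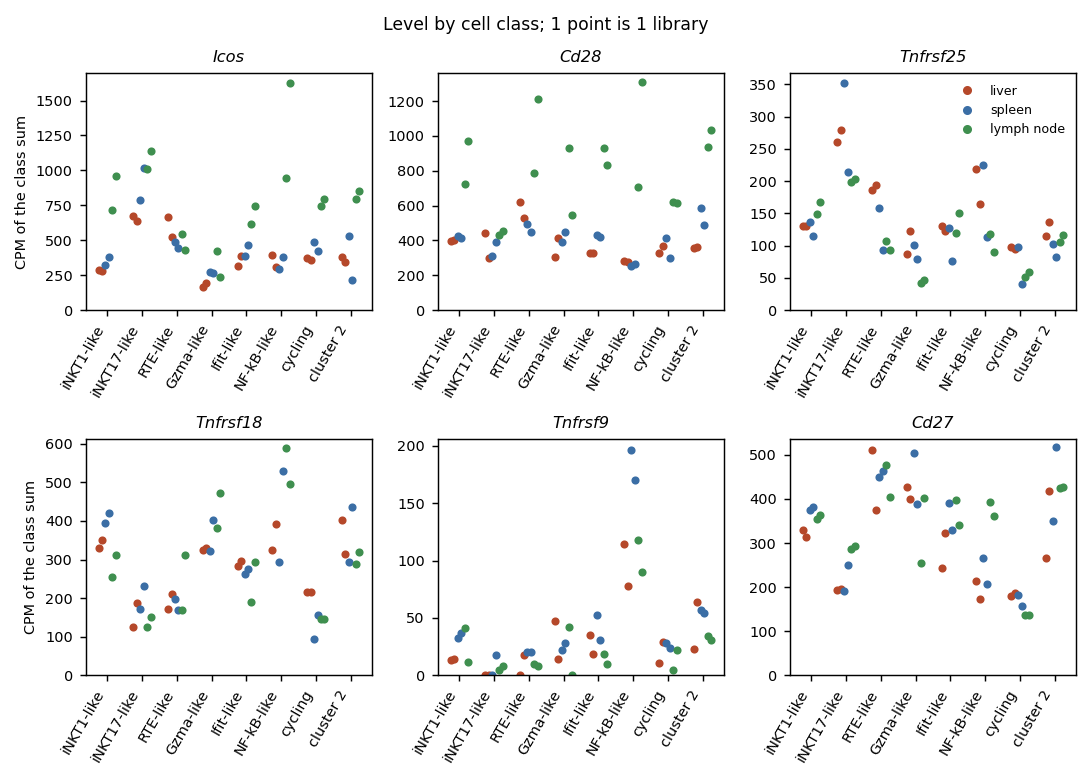
Level (CPM of the summed UMIs, linear axis from 0) of 6 of the genes in 8 cell classes, 1 point per library and colours for the organs. Icos and Tnfrsf25 are high in iNKT17-like cells, Tnfrsf9 is high in NF-kB-like cells, and Cd28 is highest in lymph node in 7 of the 8 classes.

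The class levels also show whether the organ order was seen inside the classes. For Cd28 both lymph node libraries lay above the 4 others in 7 of 8 classes, with iNKT17-like cells as the exception. For Icos they lay above in 5 of 8, the exceptions being iNKT17-like, RTE-like and Gzma-like cells. These 2 genes were already highest in lymph node over all cells of the same libraries. For each of the remaining genes the lymph node libraries lay above in 0 to 2 of 8 classes. Liver was lowest for Icos in 5 of 8 classes and for each of the other genes in 0 to 3. Both spleen libraries were highest for Cd40lg in 4 of 8 classes and for each of the other genes in 0 to 2. Over all genes tested and these 8 classes, the lymph node libraries lay above the others in 10.0% of combinations, liver was lowest in 7.28% and spleen highest in 7.38%.

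The organs were then compared within iNKT1-like and within iNKT17-like cells, on sums per library. The iNKT1-like class gave 2172 and 1914 cells from the liver libraries, 1838 and 1871 from spleen but only 116 and 174 from lymph node. Most liver cells of this class were in cluster 0 (2134 and 1732 cells) and most spleen cells in cluster 1 (1759 and 1809 cells), and the median log2 fold of the iNKT1 markers was 0.80 in cluster 0 and 0.24 in cluster 1. Of 8 genes tested (Tnfrsf4 was too rare), 5 were called between liver and spleen, against 23.1% of all 9455 genes tested. Between liver and lymph node 2 were called, against 6.19%, and between spleen and lymph node 2 were called, against 2.33%. The median fold of all genes against lymph node was shifted to 0.11 in this class, and folds are to be read relative to it.

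In iNKT1-like cells, Icos was at 284.5 and 282.0 CPM in liver, 320.0 and 377.7 CPM in spleen, and 716.2 and 962.6 CPM in lymph node. The order of the organs was that of all cells, with no overlap. Liver over lymph node was -1.58 ± 0.16 (log2, SE; edgeR adjusted p = 2.87e-15), between -1.74 and -0.79 in 15 alternatives, all of them called. Spleen over lymph node was -1.19 ± 0.16 (edgeR adjusted p = 3.02e-09), which was lost (log2 fold -0.54, adjusted p = 0.322) when cells were clustered without regressing out UMI count and mitochondrial share. Cd28 was at 398.4 and 402.3 CPM in liver, 422.2 and 413.1 CPM in spleen, and 724.4 and 968.4 CPM in lymph node, so that lymph node was higher in both libraries. Its log2 folds were -1.09 ± 0.15 for liver over lymph node (edgeR adjusted p = 9.67e-09) and, for spleen, -0.94 ± 0.15 (edgeR adjusted p = 3.27e-06), the latter lost in the clustering without regression and without lymph node replicate 2 (adjusted p up to 0.239).

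Tnfrsf9 differed more between liver and spleen in iNKT1-like cells than over all cells. It was at 13.6 and 14.6 CPM (69 and 54 UMIs) in liver and 32.3 and 36.8 CPM (74 and 79 UMIs) in spleen. The log2 fold was -1.38 ± 0.23 (SE; edgeR adjusted p = 1.07e-06) and was called in 14 of 14 alternatives that gave a value. The lymph node libraries had 5 and 2 UMIs, too few to place them. Cd40lg was at 179.5 and 205.7 CPM in liver, 325.3 and 314.4 CPM in spleen, and 238.7 and 311.3 CPM in lymph node. Liver was lowest in both libraries, and its log2 fold over spleen was -0.82 ± 0.13 (edgeR adjusted p = 1.91e-07). This call was kept in 14 of 15 alternatives and lost when the libraries were thinned to the smallest total (log2 fold -0.38, adjusted p = 0.538). Icos (log2 fold -0.39 ± 0.13, edgeR adjusted p = 0.0188), Tnfrsf18 (-0.35 ± 0.13, adjusted p = 0.0299) and Cd27 (-0.32 ± 0.13, adjusted p = 0.0492) were also lower in liver than in spleen. These 3 calls were lost in the thinned libraries, without liver replicate 1 and without spleen replicate 2, and the Cd27 call was kept in 3 of 15 alternatives.

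The iNKT17-like class was small outside lymph node (28 and 43 cells from liver, 55 and 33 from spleen, against 874 and 1029), and 6 genes were tested. Between liver and spleen 0 were called by edgeR or DESeq2 (0 at an unadjusted edgeR p below 0.05), against 2.97% of all 2086 genes tested. Between liver and lymph node only Icos was called, against 15.5% of all genes. Between spleen and lymph node 0 were called by edgeR or DESeq2 (1 at an unadjusted edgeR p below 0.05), against 4.12% of all genes. The Icos log2 fold was -0.71 ± 0.18 (SE) for liver over lymph node (edgeR adjusted p = 0.00467), called in 10 of 14 alternatives. It was lost without liver replicate 2 and without lymph node replicate 2. Its folds of -0.37 ± 0.23 for liver over spleen (edgeR adjusted p = 0.453) and of -0.34 ± 0.18 between spleen and lymph node (edgeR adjusted p = 0.370) did not pass. Cd28 was at 443.2 and 299.8 CPM in liver, 309.1 and 391.6 CPM in spleen, and 428.1 and 454.5 CPM in lymph node, with liver and lymph node overlapping.

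**Figure D4:**
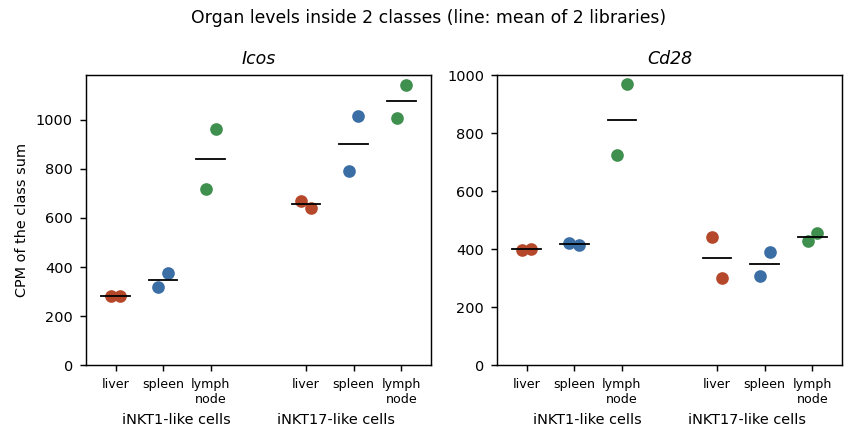
Level (CPM of the summed UMIs, linear axis from 0) of Icos and Cd28 in iNKT1-like and iNKT17-like cells by organ, 1 point per library and a line at the mean of 2. The step up of the means to lymph node is larger in iNKT1-like than in iNKT17-like cells for both genes. By the interaction test the difference for Cd28 (liver over lymph node) did not pass, and that for Icos depends on the clustering.

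Whether the organ effect differs between these classes was tested by the class-by-organ interaction term over 8287 genes, with each library kept as a block. For Icos, the liver over lymph node effect in iNKT17-like minus iNKT1-like cells was 0.75 on the log2 scale (edgeR adjusted p = 0.0125, where 0.748% of genes were called), and the spleen over lymph node effect 0.85 (edgeR adjusted p = 0.00152, where 0.652% of genes were called). Both depend on the clustering, since in 3 other clusterings the first was 0.22 to 0.65 (adjusted p 0.0681 to 0.905) and the second 0.20 to 0.82 (adjusted p 0.00198 to 0.958). For Cd28 the liver over lymph node difference of 0.72 did not pass (edgeR adjusted p = 0.151).

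The share of cells with a UMI was compared after each cell had been thinned to 1000 UMIs, since liver cells held more UMIs. Unlike for CPM, these 1000 UMIs included ribosomal and haemoglobin genes, which held 33.9% and 31.5% of UMIs in liver against 22.6% to 27.8% elsewhere. A thinned liver cell was thus left with fewer UMIs of other genes, and how far this lowers the liver shares was not tested. Cells with fewer UMIs were left out (0 and 9 of liver, 144 and 169 of spleen, 265 and 488 of lymph node). Icos was seen in 17.03% and 17.1% of liver cells, 21.1% and 23.0% of spleen cells, and 42.1% and 47.2% of lymph node cells. Cd28 was seen in 21.7% and 22.2%, 26.6% and 24.8%, and 36.5% and 38.4% of cells, in the same order. For both, lymph node was highest in each library. Cd40lg was seen in 11.2% and 12.7% of liver cells, 19.9% and 20.0% of spleen cells, and 16.1% and 16.9% of lymph node cells. Tnfrsf18 was seen in 18.4% and 20.2%, 23.1% and 25.5%, and 15.7% and 17.3% of cells. Tnfrsf9 was seen in 1.25% to 2.74% and Tnfrsf4 in 0.04% to 0.55% of cells of a library.

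Without thinning, the means in liver, spleen and lymph node were 42.6%, 35.0% and 57.6% for Icos and 53.1%, 41.3% and 50.1% for Cd28. For these 2 genes liver, whose cells held more UMIs, then lay above spleen. Of the 27 comparisons of a gene between 2 organs, 7 turned round without thinning, and some of these were of Tnfrsf18, Tnfrsf25, Cd27 and Cd40lg. As a measure of free RNA, 25 cells led by B cell and myeloid genes were used (median UMI count 0.67 times that of their libraries). They were pooled over the organs, with 17 from liver, 3 from spleen and 5 from lymph node. These cells held a UMI of Icos in 0 of 25 cells, which a 95% Wilson interval puts at up to 13.3%. They held Tnfrsf9 in 0 cells, Tnfrsf4 in 1, Cd28, Tnfrsf18, Tnfrsf1b and Cd40lg in 3 each, Tnfrsf25 in 4 and Cd27 in 7. After thinning to 1000 UMIs, 22 of these cells were left, of which 0 held Icos, Cd28 or Tnfrsf9 (up to 14.9%), 4.55% each held Tnfrsf4, Tnfrsf1b, Tnfrsf25 or Cd40lg (0.807% to 21.8%), 9.09% held Tnfrsf18 (2.53% to 27.8%) and 22.7% held Cd27 (10.1% to 43.4%). The shares in all 6 libraries lay above these intervals for Icos and Cd28. For the other 7 genes all 6 libraries lay within or below the interval, and for Tnfrsf4 all 6 lay below it, so that by this measure free RNA cannot be told apart from expression for them. The measure takes the 25 cells to express none of the 9 genes, which was not tested. Before thinning, Tnfrsf1b in such cells of liver replicate 2 was 3.98 times its level in the other cells (3 UMIs in 12 cells). At 500 UMIs per cell, at least 1 library lay within or below the interval for each of the 9 genes. Intervals cover counting error only. A thinned liver cell held a UMI of 1.01 and 1.05 of the 9 genes on average, a spleen cell of 1.30 and 1.30, and a lymph node cell of 1.48 and 1.60. None of the 9 was seen in 33.7% and 32.2% of liver cells, 23.6% and 24.1% of spleen cells, and 17.6% and 15.0% of lymph node cells. These values come from the same thinning, which left liver cells fewer UMIs outside the ribosomal and haemoglobin genes.

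**Figure D5:**
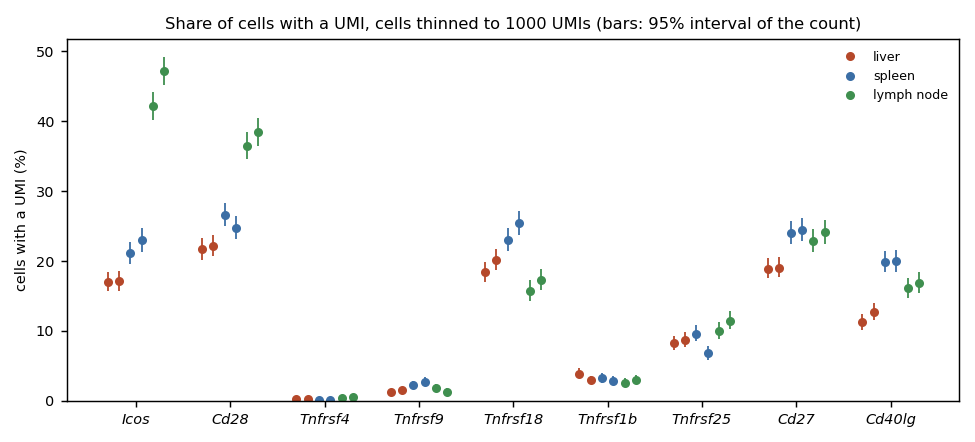
Share of cells (%) with at least 1 UMI of each gene after thinning each cell to 1000 UMIs, 1 point per library, bars are 95% Wilson intervals of the count. Icos is seen in 42.1% and 47.2% of lymph node cells and in 17.03% to 23.0% of the other cells.

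Pairs of these genes in the same cell were counted over 15457 thinned cells and set against the number that their separate shares in a class and library give. For the 25 of the 36 pairs that were seen together in at least 50 cells, the observed count was 0.894 to 1.19 times that expected. For the other 11 pairs, 8 of them with Tnfrsf4, the ratio was 0.608 to 4.82, the highest being Tnfrsf4 with Tnfrsf9 in 4 cells where 0.831 were expected. Icos and Cd28 were seen together in 1331 cells where 1259.9 were expected. Across 37 sums of a class in a library (at least 50 cells each), Pearson's r of log2(CPM + 1) between 2 of the genes was lowest for Icos with Tnfrsf18 (-0.54) and highest for Icos with Cd28 (0.57). These points share libraries and classes and are a description. Among 5886 genes with a mean of at least 20 CPM over these sums, those most like Icos were Ramp1 (r = 0.90), Sema4b (0.80) and Rgcc (0.80). Cd28 was most like Lbh, Tox and Ccdc9 (0.81 each), Tnfrsf18 most like Klrb1c (0.81), B4galnt1 (0.80) and Peak1 (0.78), and Tnfrsf9 most like Pdcd1lg2 (0.68), Cand1 (0.66) and Higd1a (0.65). Tnfrsf25 was most like Ikzf3 (0.75), Psap (0.72) and Dalrd3 (0.68), and Cd27 most like Pdcd4 (0.78), Hmha1 and Tcp11l2 (0.77 each). Tnfrsf1b was most like Jak2 (0.68), Hsph1 (0.67) and Cd74 (0.67), and Cd40lg most like Morf4l1 (0.78), Phpt1 (0.76) and Cirbp (0.74). Tnfrsf4 was below the minimum level for this measure.

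The other genes of these pathways were taken from 5 lists with 88 genes beside the 9, of which 67 were tested. For liver against spleen 22 were called (16 higher in liver and 6 lower), for liver against lymph node 34 (17 and 17), and for spleen against lymph node 24 (7 higher in spleen and 17 lower), with the shares of all genes called as given above. The median log2 folds of the 67 were 0.13, -0.03 and -0.05. With DESeq2 the counts were 11 of 65, 25 of 74 and 11 of 67 tested, where 13.7%, 19.5% and 9.42% of all genes were called.

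In the CD28 family and its ligands, the inhibitory receptor Pdcd1 (PD-1) was at 13.1 ± 2.3 CPM (SD, n = 2) in liver, 14.4 ± 3.9 CPM in spleen and 66.7 ± 2.9 CPM in lymph node. Its log2 fold was -2.35 ± 0.18 (SE) for liver over lymph node (edgeR adjusted p = 1.53e-12). Ctla4, which lies between Cd28 and Icos and competes for the ligands of CD28, was at 4.65 ± 0.01 CPM in liver, 1.24 ± 0.66 CPM in spleen and 3.93 ± 0.23 CPM in lymph node, and was higher in liver than in spleen (log2 fold 1.91 ± 0.49, edgeR adjusted p = 0.00466), a call that was lost with DESeq2 (adjusted p = 0.0801) and without spleen replicate 1. Icosl, the ligand of ICOS, was low but higher in liver than in lymph node (6.80 ± 0.31 against 2.03 ± 1.32 CPM, log2 fold 1.73 ± 0.43, edgeR adjusted p = 0.00186), which was lost with DESeq2 (adjusted p = 0.0558) and without lymph node replicate 2. Cd86 was lower in spleen than in lymph node (log2 fold -1.84 ± 0.50, edgeR adjusted p = 0.00816), and Pdcd1lg2, a ligand of PD-1, higher (0.83 ± 0.17, edgeR adjusted p = 0.000339). The Cd86 call was lost with DESeq2 (adjusted p = 0.116), without spleen replicate 1 and without lymph node replicate 2, and that of Pdcd1lg2 without iNKT17-like cells (adjusted p = 0.170). B and myeloid cells also express Icosl and Cd86, and the sums of their markers given above were highest in liver replicate 2 for B cells and in lymph node replicate 2 for myeloid cells. These calls of Icosl and Cd86 were kept in the alternative that left out cells taken for other types. The part of B and myeloid cells in these values was not tested further.

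Among TNF receptors and ligands, Tnfrsf1a, a receptor of TNF with a death domain, was at 65.6 ± 8.6 CPM (SD, n = 2) in liver, 27.8 ± 5.9 CPM in spleen and 16.8 ± 2.8 CPM in lymph node. It was higher in liver than in either other organ (log2 fold 1.23 ± 0.16 over spleen and 1.97 ± 0.18 over lymph node, edgeR adjusted p = 1.82e-06 and 1.37e-10). Fasl was lower in lymph node (30.5 ± 4.1 CPM against 90.5 ± 0.3 in liver and 75.6 ± 2.7 in spleen, edgeR adjusted p = 1.22e-10 and 3.32e-08). Tnfsf9, the ligand of CD137, was higher in liver than in spleen (6.84 ± 1.95 against 2.93 ± 2.31 CPM, log2 fold 1.27 ± 0.42, edgeR adjusted p = 0.0274), while Tnfrsf13b (log2 fold -0.80 ± 0.16, adjusted p = 0.000317) and Fas (-0.62 ± 0.18, adjusted p = 0.0192) were lower. The calls of Tnfsf9 and Fas were lost with DESeq2 (adjusted p = 0.176 and 0.0544) and without liver replicate 1 or spleen replicate 1, in 4 and 5 of 17 alternatives in all. Tnfrsf21 was lower in liver than in lymph node (log2 fold -1.91 ± 0.45, edgeR adjusted p = 0.00116).

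In the signalling lists, Tnfaip3 (A20, an inhibitor of NF-kB signalling) was at 27.7 ± 1.2 CPM (SD, n = 2) in liver, 27.5 ± 2.6 CPM in spleen and 152.5 ± 14.3 CPM in lymph node. Liver over lymph node was -2.46 ± 0.14 (log2, SE; edgeR adjusted p = 8.22e-16) and spleen over lymph node -2.47 ± 0.15 (edgeR adjusted p = 8.69e-15). Birc2, an E3 ligase bound to TRAF2, was lower in liver than in spleen (56.2 ± 2.8 against 101.5 ± 6.0 CPM, log2 fold -0.85 ± 0.12, edgeR adjusted p = 6.71e-06).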

How the data were processed

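The 9 genes and all lists were chosen with earlier results of these data known. The authors made the deposited files with Cell Ranger 3.1.0 on mm10 (submitters' processing notes), and the deposited matrices hold raw UMI counts for each gene in each cell, not normalized. The other values deposited are lists of barcodes and of gene identifiers. Here, cells with 300 to 4000 genes and at most 15% mitochondrial UMIs were kept (55 barcodes left out, no doublet caller run), and 94 ribosomal and haemoglobin genes (22.6% to 33.9% of UMIs) were left out. Counts were summed per library and tested with edgeR 4.0.16 in R 4.3.3 (filterByExpr minimum count 10, TMM, robust quasi-likelihood fit of all 6 libraries with organ as the term, Benjamini-Hochberg over all genes tested). The standard error (SE) is the size of the fold divided by the square root of F. A class sum needed at least 10 cells.

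Clusters (leidenalg 0.10.2, resolution 0.5, 20 principal components of 3000 variable genes, UMI count and mitochondrial share regressed out) were built without the 9 genes, Xist, Tsix and Y-chromosome genes. A cluster took a name when its markers had a median log2 fold of at least 1 and 3 markers were 2-fold up, or iNKT1-like when that list's median was above 0, thresholds set after the clusters had been seen. Named beside the 9 were the 3 pathway genes with the largest called fold each way per comparison and the 3 genes most alike over class sums. The test was run on simulated counts with known changes before use. Replicates of an organ differed beyond sampling noise (chi-square per degree of freedom 3.44 to 7.64). Alternatives were DESeq2 1.42.0, RLE scaling, no filter, a replicate block, leaving out each library, libraries thinned to 1 total, other cell filters and 3 other clusterings.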

Additional observations from a re-analysis of the deposited data

Results flagged for a closer look

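The organ effect on Icos differed between iNKT17-like and iNKT1-like cells by the interaction test. The difference, iNKT17-like minus iNKT1-like on the log2 scale, was 0.7491 for liver over lymph node (edgeR adjusted p = 0.0125), while spleen over lymph node gave 0.8502 (edgeR adjusted p = 0.00152). In iNKT1-like cells Icos rose from 284.5 and 282.0 CPM in liver to 716.2 and 962.6 CPM in lymph node, and in iNKT17-like cells from 670.5 and 640.9 to 1007.1 and 1140.1 CPM. The first of these differences was called in 0 of 3 other clusterings (0 at resolution 1.0, where the unadjusted p was 0.0135, at 0.474 adjusted) and the next in 1 of 3.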

How the results depend on the processing

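No cause of a change with the setting was tested, apart from the loss of cells, libraries or counts that a setting is built to make. Of the 9 genes, edgeR called 5 in each comparison over all cells. DESeq2 called 3 between liver and spleen (13.7% of all genes). The range on leaving out each library was 1 to 4 between liver and spleen (1 without spleen replicate 2 and 2 without liver replicate 1, each with 12.9% of all genes) and 3 to 4 between liver and lymph node (22.6% to 38.2% of all genes; 3 without lymph node replicate 1, with 27.2%). Without iNKT17-like cells 3 were called between spleen and lymph node (12.2% of all genes). Over all genes, edgeR called 2642, 3846 and 1858 and DESeq2 1324, 2356 and 1023. Among the pathway genes, DESeq2 called 11 between liver and spleen (edgeR 22) and 11 between spleen and lymph node (edgeR 24).

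In iNKT1-like cells, the 5 calls between liver and spleen were 3 with DESeq2 (11.1% of all genes called), 3 without regression (21.5%), 0 with libraries thinned to the smallest total (5.65%; 0 of the 6 tested at an unadjusted p below 0.05) and 2 to 4 on leaving out each library (9.17% to 23.5%). The 2 between liver and lymph node were 6 with cluster 2 added, where 33.4% of all genes were called in place of 6.19%. The 2 between spleen and lymph node were 0 without regression (0.541% of all genes; 4 of the 8 tested at an unadjusted p below 0.05), 4 with cluster 2 added (14.7% in place of 2.33%) and 1 to 3 on leaving out each library (0.583% to 2.75%; 1 without lymph node replicate 2, with 0.583%). In iNKT17-like cells, the Icos call between liver and lymph node became 0 calls thinned (10.4% of all genes) and 0 without regression (11.6%), and 0 to 1 on leaving out each library (6.83% to 14.9%). Of the 2 Icos interactions, 0 were called at resolution 1.0, 0 without regression and 1 with 10 principal components. Leaving out a library leaves an organ with 1, which is assumed to vary like the others.

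Folds that turned direction passed no test in either setting. They were Tnfrsf25 (liver over spleen, -0.10 without spleen replicate 2, the low end of a range up to 0.34 over the libraries left out), Tnfrsf1b (liver over lymph node, -0.0014 without liver replicate 1, in a range up to 0.34), Tnfrsf9 (liver over lymph node, -0.19 without iNKT17-like and -0.35 without NF-kB-like cells) and Tnfrsf25 (0.26 in the same comparison without iNKT17-like cells). For spleen over lymph node they were Tnfrsf25 (0.0060 without spleen replicate 2, the high end of a range from -0.43 over the libraries left out, and 0.13 without iNKT17-like cells), Cd27 (-0.042 without iNKT17-like cells), Tnfrsf1b (0.031 without the 5% of cells with the most UMIs) and Icos in thinned iNKT17-like cells (0.0075). Of the 459 values of single genes over all cells, 418 kept direction and side of the threshold. The replicate numbers were not treated as pairs (r of replicate differences 0.0862 to 0.119 over 9268 genes), and with the replicate block 5, 5 and 5 genes were called over all cells (29.9%, 40.6% and 20.8% of all genes) and 3 in place of 2 between spleen and lymph node in iNKT1-like cells (3.22% of all genes in place of 2.33%). The lymph node iNKT1-like sums came from 116 and 174 cells.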
